A study of Mus musculus with 24 samples.

Results

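The comparison described here sets mouse embryos that carried 1 knockout allele of Kat6a and 1 knockout allele of Dlx5 (Kat6a +/-, Dlx5 +/-; double heterozygous) against embryos that carried the Kat6a allele alone (Kat6a +/-, Dlx5 +/+; Kat6a heterozygous). Its members are the 4 libraries labelled with both heterozygous knockouts and the 4 labelled with the Kat6a heterozygous knockout, 8 of the 24 RNA-seq libraries of the series. It asks what the loss of 1 Dlx5 copy did to the transcriptome when 1 Kat6a copy was already lost. All embryos are labelled female, at E10.5, on a C57BL/6 background, and polyadenylated RNA came from pharyngeal arches 1 and 2, so all 8 libraries share the Kat6a allele, the strain and the stage as labelled. Libraries from Dlx5 heterozygous embryos (Kat6a +/+, Dlx5 +/-) and from wild type embryos (both genes +/+), 4 each, gave the same Dlx5 contrast with 2 intact Kat6a copies. The labels do not say which part of either gene the alleles remove, or whether embryos were pooled.

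The pharyngeal arches are outgrowths of the embryonic head and neck, filled mainly with mesenchyme from the neural crest, and they form the jaws, the middle ear and the hyoid skeleton. In mouse, endothelin signalling turns on the homeodomain transcription factors DLX5 and DLX6 in the lower part of the arches, where they set mandibular identity, while other DLX proteins act more widely. Kat6a, also called Moz, encodes a histone H3 acetyltransferase that works in a complex with BRPF scaffold proteins, ING5 and MEAF6 and that is needed for normal Dlx5 and Hox expression in mouse.

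The 8 libraries held 10.932 to 12.781 M counts each. Embryos came from 2 mouse facilities, which the labels give as batches. Replicate 1 of the double heterozygous group lay in batch 2 and its replicates 2, 3 and 4 in batch 1, whereas Kat6a heterozygous replicates 1, 2 and 3 lay in batch 2 and replicate 4 in batch 1. Genotype and batch therefore overlap in large part. The fitted batch term rests on the groups with libraries in both batches, which are the double heterozygous, Kat6a heterozygous and Dlx5 heterozygous groups, since each of the other 3 groups lay in 1 batch. Xist, the RNA of the inactive X chromosome in female cells, had 1098 to 1870 CPM (counts scaled to library size with TMM factors) in the double heterozygous libraries and 1411 to 2140 CPM in Kat6a heterozygous replicates 1, 2 and 4, but 7.55 CPM (87 counts) in Kat6a heterozygous replicate 3. Its counts over 4 Y-linked genes were 0, against 0 to 4 in the other 7 libraries. The low Xist sets that library apart from the others labelled female, while its Y-linked counts give no sign of a male embryo. Its label is in doubt, and the cause of the low Xist was not tested. Without this library 4 genes were called, 3 of them shared with the full fit. Summed CPM of the 15 neuron markers stood at 239 to 435 in the double heterozygous libraries, against 684 in Kat6a heterozygous replicate 2 and 149 to 161 in the other 3 Kat6a heterozygous libraries. Genes with over 60% GC lay low in 2 Kat6a heterozygous libraries: their median log2 deviation from the mean of all 24 libraries was −0.01 to 0.06 in the double heterozygous libraries, against −0.17, −0.14, −0.02 and 0.02 in Kat6a heterozygous replicates 1, 2, 3 and 4. In bulk tissue, fewer cells of a type and less RNA per cell cannot be told apart.

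**Figure D1:**
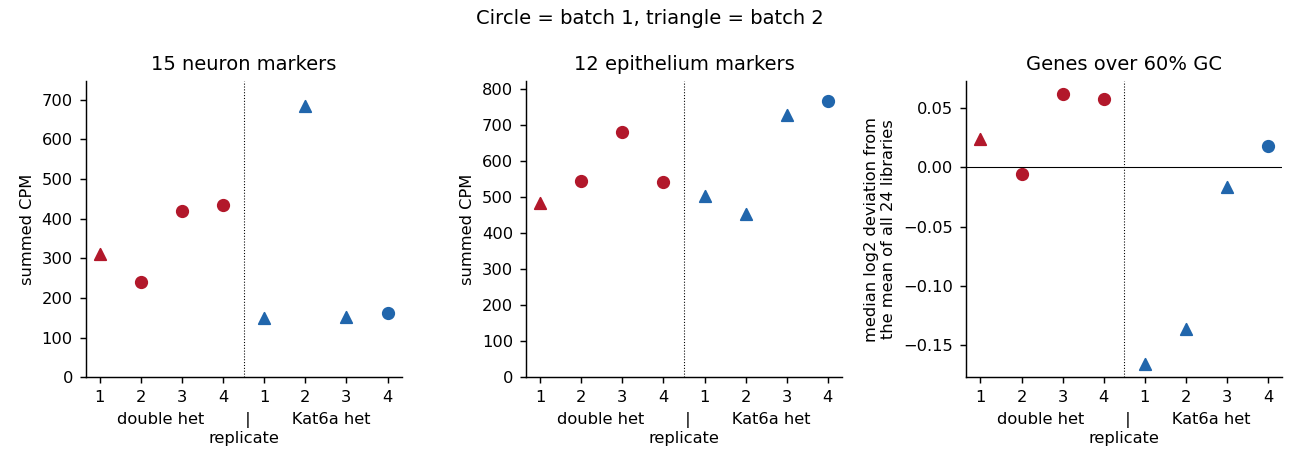
Summed CPM of 15 neuron markers and of 12 epithelium markers, and the median log2 deviation of genes with over 60% GC from the mean of all 24 libraries, in each double heterozygous library (left of the dotted line) and each Kat6a heterozygous library (right). Kat6a heterozygous replicate 2 stands highest in neuron markers (684 CPM), and Kat6a heterozygous replicates 1 and 2 lie lowest for genes of high GC content.

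Very few genes differed between the double heterozygous and the Kat6a heterozygous libraries. Of 14506 genes tested, 3 rose and 1 fell in double heterozygous arches at an adjusted p under 0.05 (edgeR quasi-likelihood test, Benjamini-Hochberg over all genes tested), which is 0.0276% of the genes tested, 0.0207% higher and 0.00689% lower. The gene that fell was Dlx6os1, a long noncoding RNA read antisense to Dlx6. The genes that rose were Alkal2, a ligand of the ALK family of receptor tyrosine kinases, Jun, a subunit of the AP-1 transcription factor, and Mex3d, an RNA-binding protein. At an unadjusted p under 0.05 there were 858 genes (5.91%), 526 of them higher and 332 lower, and the median log2 fold change over all genes was −0.00. The number of genes that passed depended on single libraries: with replicate 1 of the double heterozygous group left out it was 0 (413 at an unadjusted p under 0.05), with replicate 1 of the Kat6a heterozygous group left out 0 (738), 1 without Kat6a heterozygous replicate 4, and 2 without double heterozygous replicate 4, Dlx5 homozygous replicate 2 or Kat6a homozygous replicate 1 or 3. It was 7 without wild type replicate 4 or Dlx5 heterozygous replicate 4. DESeq2 called 15 genes (13 higher, 2 lower) and limma voom with quality weights called 13 (11 higher, 2 lower), and all 4 genes were among each.

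**Figure D2:**
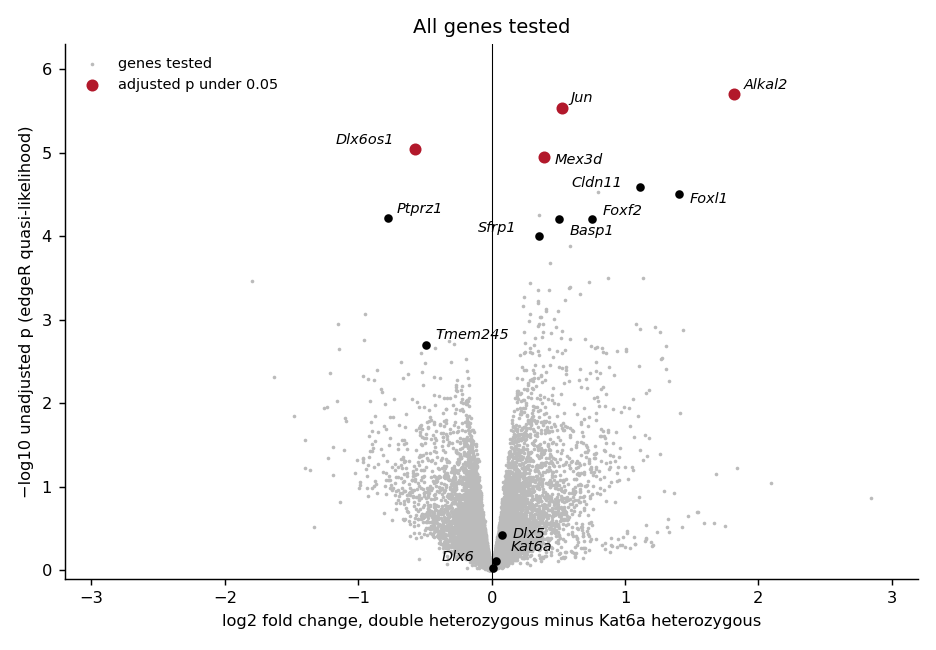
Log2 fold change of the double heterozygous minus the Kat6a heterozygous libraries (x axis) against the −log10 unadjusted p of the edgeR quasi-likelihood test (y axis) for the 14506 genes tested. The 4 genes at an adjusted p under 0.05 are in red, and Dlx5, Dlx6 and Kat6a lie near 0 on both axes.

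The counts of the targeted genes did not separate the groups. Dlx5 (chromosome 6, 6877801 to 6882068, GRCm38) had 68.8, 59.3, 56.4 and 57.0 CPM in the double heterozygous libraries, against 61.6, 63.8, 62.8 and 54.6 CPM in the Kat6a heterozygous libraries. The groups overlapped, and the log2 fold change was 0.08 (SE 0.09, 95% interval −0.11 to 0.26, edgeR adjusted p = 0.997). A loss of the transcripts of 1 of 2 copies without any other change would give a log2 value of about −1, which lies outside that interval. The extent of the allele is not known, and a transcript that lacks part of the gene would still be counted. Dlx5 homozygous libraries averaged 62.6 ± 5.1 CPM and wild type libraries 69.4 ± 6.8 CPM (SD, n = 4 each). The gene-level count was thus not lost even where both copies were labelled knockout, and these values do not check the Dlx5 genotype. Kat6a had 240, 239, 215 and 244 CPM in double heterozygous libraries and 244, 259, 223 and 211 CPM in Kat6a heterozygous libraries, a log2 fold change of 0.03 (SE 0.11). These libraries carry the same Kat6a genotype. Kat6a homozygous libraries averaged 227.6 ± 14.6 CPM and wild type libraries 201.5 ± 40.7 CPM, so the counts do not check the Kat6a genotype either.

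Dlx6os1, also called Evf2, runs on the minus strand at chromosome 6, 6820543 to 6871627, across Dlx6 on the opposite strand and with its 5′ end towards Dlx5. In the mouse forebrain this RNA is known to act with DLX proteins at the enhancers of Dlx5 and Dlx6. The RefSeq promoter table lists 2 starts for it, both inside the interval printed above, and holds no window for the 5′ end of that interval. The 250 bases before each listed start are shown because Dlx6os1 is the single gene that fell and DLX proteins bind the homeodomain core TAATTA, which is in capitals (searched on both strands, as is every motif here). Sequences are from the RefSeq promoter table of GRCm38.p6, 5′ to 3′ on the strand of the gene.
Dlx6os1 distal start, chr6:6869534-6869783, minus strand: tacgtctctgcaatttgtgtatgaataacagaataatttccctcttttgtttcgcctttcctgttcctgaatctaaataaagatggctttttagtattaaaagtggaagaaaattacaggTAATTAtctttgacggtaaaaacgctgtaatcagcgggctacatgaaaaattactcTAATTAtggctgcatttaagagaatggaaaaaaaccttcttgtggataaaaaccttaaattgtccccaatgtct
Dlx6os1 proximal start, chr6:6861684-6861933, minus strand: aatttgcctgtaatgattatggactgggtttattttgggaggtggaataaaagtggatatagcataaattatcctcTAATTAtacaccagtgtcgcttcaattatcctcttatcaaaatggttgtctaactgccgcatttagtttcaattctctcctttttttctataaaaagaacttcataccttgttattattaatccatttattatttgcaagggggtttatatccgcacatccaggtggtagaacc
The distal window holds 2 copies of TAATTA, beginning 130 and 74 bases before the start, and the proximal window holds 1, beginning 174 bases before it. Of the 32851 windows of 250 bases in the table, 4.84% hold at least 1 copy. A match describes the letters and is no evidence of binding.

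Dlx6os1 had 23.2, 24.6, 23.3 and 22.02 CPM in the double heterozygous libraries, against 41.1, 32.7, 37.6 and 34.8 CPM in the Kat6a heterozygous libraries. All 4 double heterozygous values lay below all 4 Kat6a heterozygous values, as in 208 of the 14506 genes tested (1.43%). In 295 genes (2.03%) all double heterozygous values lay above, so that 3.47% of genes did not overlap. The double heterozygous values were tightly grouped (23.3 ± 1.0 against 36.5 ± 3.6 CPM, SD, n = 4 each). The fitted log2 fold change was −0.57 (SE 0.10, 95% interval −0.79 to −0.35, edgeR adjusted p = 0.0412), close to 0.672 of the Kat6a heterozygous level. Within batch 1 it was −0.58 and within batch 2 it was −0.68, and with GC-corrected offsets −0.55 (adjusted p = 0.0218). The call was lost without double heterozygous replicate 1 (−0.49, edgeR adjusted p = 1), without Kat6a heterozygous replicate 3, the library low in Xist (−0.57, adjusted p = 0.0653), and with the neuron score as a covariate (−0.45, adjusted p = 0.0763). It was also lost with replicate 3 or 4 of the double heterozygous group left out, replicate 1 or 4 of the Kat6a heterozygous group, Dlx5 homozygous replicate 2 or 4, or Kat6a homozygous replicate 1 or 3, with values of −0.58 to −0.54 and adjusted p of 0.0505 to 0.303.

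Across the series, Dlx6os1 was highest in wild type and lowest in Kat6a homozygous libraries. Its mean was 23.3 ± 1.0 CPM in double heterozygous, 40.9 ± 5.0 CPM in Dlx5 heterozygous, 25.1 ± 1.4 CPM in Dlx5 homozygous, 11.4 ± 1.2 CPM in Kat6a homozygous, 36.5 ± 3.6 CPM in Kat6a heterozygous and 48.8 ± 6.2 CPM in wild type libraries (SD, n = 4 each). The double heterozygous and Dlx5 homozygous values overlapped, as did the Dlx5 heterozygous and Kat6a heterozygous values. With 2 Kat6a copies, the Dlx5 allele went with a log2 difference of −0.23 (SE 0.09, adjusted p = 0.329). The difference between that value and the one on the Kat6a heterozygous background was −0.35 (SE 0.13, unadjusted p = 0.0139, adjusted p = 0.877), so a larger Dlx5 effect on the Kat6a heterozygous background did not pass the test over all genes.

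**Figure D3:**
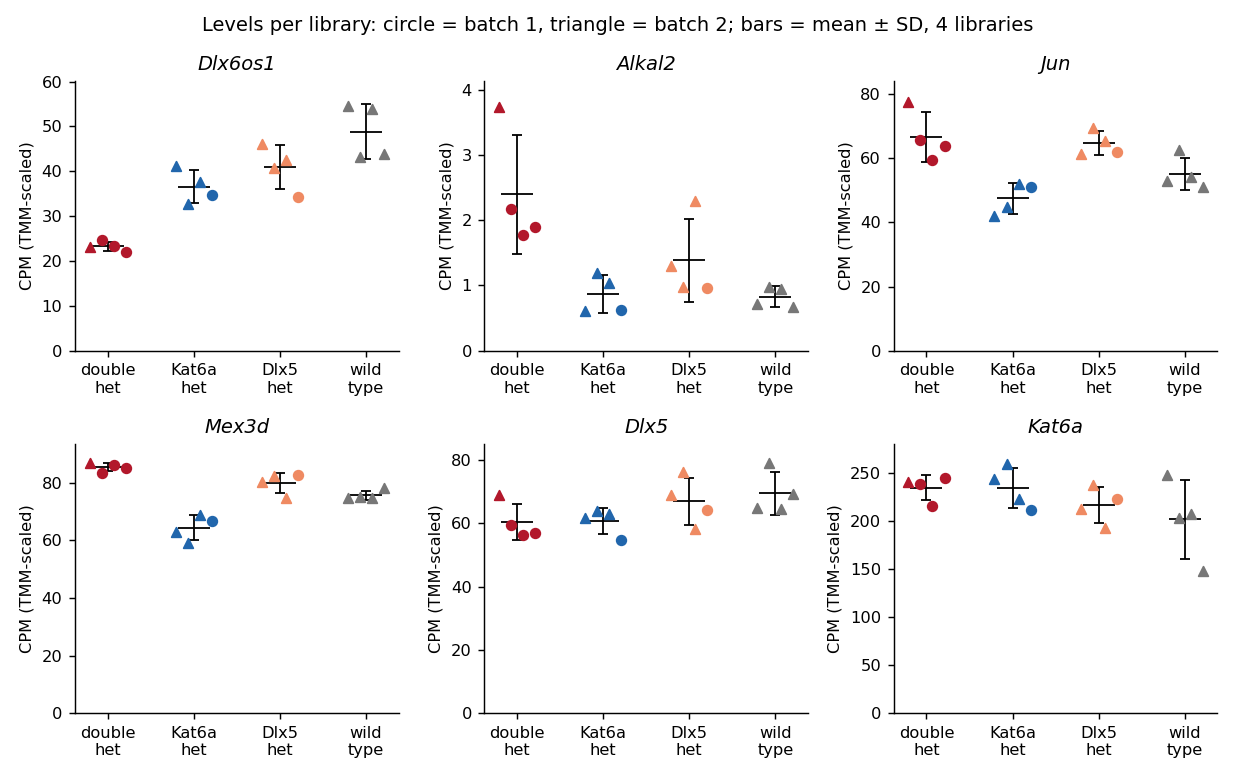
TMM-scaled CPM of the 4 genes that passed the test and of Dlx5 and Kat6a in each library of the double heterozygous, Kat6a heterozygous, Dlx5 heterozygous and wild type groups, with batch shown by the symbol and the mean ± SD of 4 libraries as bars. The double heterozygous values of Dlx6os1 (22.02 to 24.6 CPM) lie below all Kat6a heterozygous values, those of Alkal2, Jun and Mex3d lie above them, and those of Dlx5 and Kat6a overlap.

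The rest of the Dlx family did not pass the test. Dlx6, which encodes the homeodomain partner of DLX5 and lies under Dlx6os1, had 32.1, 26.9, 24.8 and 29.9 CPM in double heterozygous libraries and 28.5, 30.5, 28.6 and 29.3 CPM in Kat6a heterozygous libraries. The groups overlapped and the log2 fold change was 0.01 (SE 0.11). Whether reads were counted by strand is unknown here, and reads of Dlx6 and Dlx6os1 cannot be told apart with certainty where the genes overlap. Dlx1 and Dlx2, the pair that acts in the upper and lower arch alike, stood at 0.09 each (SE 0.08 and 0.10), Dlx3 at −0.08 (SE 0.09), Dlx4 at −0.01 (SE 0.17) and the antisense transcript Dlx1as at −0.22 (SE 0.19), with the same doubt over strand for Dlx1 and Dlx1as. Of the 8 family members tested, 1 (Dlx6os1) was called lower and none higher, and the family median was 0.00. Over all genes tested, 0.00689% were called lower and 0.0207% higher. Kat6b, the close relative of Kat6a, had 72.4, 64.5, 66.1 and 66.7 CPM in double heterozygous libraries and 61.8, 68.1, 74.6 and 60.3 CPM in Kat6a heterozygous libraries (log2 fold change 0.11, SE 0.09).

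Upstream and downstream of Dlx5, no gene of the endothelin pathway or of mandibular patterning passed the edgeR test, nor did one in DESeq2 or limma voom. The 13 endothelin pathway genes had a median log2 fold change of 0.03, and 2 were below 0 at an unadjusted p under 0.05. Those were Edn1, the ligand, with 1.37, 1.56, 2.20 and 1.49 CPM in double heterozygous libraries and 2.63, 1.74, 2.08 and 3.11 CPM in Kat6a heterozygous libraries (−0.74, SE 0.28), and Ece1, the enzyme that activates it (−0.19, SE 0.07). The receptor gene Ednra stood at 0.19 (SE 0.11) and the effector Mef2c at 0.10 (SE 0.15). Of 22 mandibular patterning genes, 18 were above 0, with a median of 0.24, and 5 were above 0 at an unadjusted p under 0.05. Over all genes tested, 49.3% were above 0 and 5.91% had an unadjusted p under 0.05 in either direction. The mandibular median was 0.13 within batch 1, 0.39 within batch 2 and 0.12 without double heterozygous replicate 1. Hand2, a bHLH factor of the lower arch that lies downstream of DLX5 and DLX6, had 118, 96.5, 83.5 and 101 CPM in double heterozygous libraries and 90.2, 81.9, 82.6 and 93.6 CPM in Kat6a heterozygous libraries (0.21, SE 0.11), while Hand1 stood at −0.06 (SE 0.16). Gsc, a homeobox gene of the lower jaw, had 19.8, 9.12, 9.40 and 10.35 CPM against 5.07, 6.65, 12.2 and 6.66 CPM in the same order of groups (0.94, SE 0.27, adjusted p = 0.421). Besides Gsc, the genes above 0 at an unadjusted p under 0.05 were Dlk1 (0.54, SE 0.17), Foxf1 (0.46, SE 0.16), Barx1 (0.33, SE 0.13) and Msx1 (0.71, SE 0.32). Gsc and Barx1 have 66.6% and 65% GC, and with GC-corrected offsets they stood at 0.75 and 0.165. With the same offsets Dlk1, Foxf1 and Msx1 stood at 0.54, 0.46 and 0.70. Hand2, Gsc and the imprinted gene Dlk1 were each highest in double heterozygous replicate 1, where Dlk1 reached 1113 CPM against 525 to 565 CPM in the other 3 libraries of the group and 432 to 559 CPM in the Kat6a heterozygous libraries.

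The 16 dorsal arch identity genes had a median of 0.13 and 14 were above 0, and none passed the edgeR test, DESeq2 or limma voom. Pou3f3, a POU factor of the upper arch that DLX5 and DLX6 keep out of the lower arch in mouse, had 47.1, 48.3, 45.1 and 61.9 CPM in double heterozygous libraries and 36.5, 38.9, 40.7 and 44.04 CPM in Kat6a heterozygous libraries (0.26, SE 0.12, unadjusted p = 0.0435). Its groups did not overlap. Jag1, the Notch ligand of the upper arch, stood at −0.19 (SE 0.08), and 4 of the 16 genes had an unadjusted p under 0.05, 3 of them above 0. Of all genes tested, 5.91% met that threshold and 49.3% were above 0. The 10 genes of the Kat6a complex and its relatives had a median of 0.04, with 0 called in edgeR, DESeq2 or limma voom and 0 at an unadjusted p under 0.05.

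Alkal2 (chromosome 12, 30884324 to 30893856) encodes a secreted ligand that activates ALK and LTK, receptor tyrosine kinases best known from the nervous system and neural crest derivatives. It had 3.74, 2.17, 1.78 and 1.90 CPM in double heterozygous libraries, against 0.612, 1.19, 1.04 and 0.622 CPM in Kat6a heterozygous libraries. The groups did not overlap, although the gene was rare, with 41, 25, 21 and 23 raw counts in double heterozygous libraries and 7, 15, 12 and 7 in Kat6a heterozygous libraries. Its log2 fold change was 1.82 (SE 0.30, 95% interval 1.19 to 2.45, edgeR adjusted p = 0.0210), a 3.53-fold higher level, with 1.63 within batch 1 and 1.96 within batch 2. Dlx5 heterozygous libraries had 1.30, 0.980, 2.30 and 0.955 CPM and wild type libraries 0.717, 0.982, 0.951 and 0.673 CPM, a difference of 0.92 (SE 0.29, adjusted p = 0.256). Means were 0.730 ± 0.122 CPM in Dlx5 homozygous and 1.19 ± 0.38 CPM in Kat6a homozygous libraries. The Dlx5 homozygous mean was no higher than the wild type mean of 0.831 ± 0.158 CPM. Those 2 groups lay in different batches, and CPM carry no batch correction. The call was lost without double heterozygous replicate 1 (1.66, adjusted p = 1), without Kat6a heterozygous replicate 1 (1.66, adjusted p = 0.0881) or 4 (1.88, adjusted p = 0.151), without the batch term (1.44, adjusted p = 0.15) and in the 8 libraries alone (1.85, edgeR adjusted p = 0.0509).

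Jun (chromosome 4, 95049036 to 95052222) had 77.6, 65.6, 59.3 and 63.8 CPM in double heterozygous libraries, against 42.1, 44.9, 52.1 and 51.1 CPM in Kat6a heterozygous libraries. The groups did not overlap, and Kat6a heterozygous replicates 1 and 2 were the lowest of the 8. Its log2 fold change was 0.53 (SE 0.09, 95% interval 0.34 to 0.71, edgeR adjusted p = 0.0210), with 0.30 within batch 1 and 0.74 within batch 2, so the value within batch 2 exceeded that within batch 1 by more than 1.5 times. Dlx5 heterozygous libraries averaged 64.7 ± 3.8 CPM and wild type libraries 55.2 ± 5.1 CPM (SD, n = 4 each), which places the double heterozygous mean of 66.6 ± 7.8 CPM within the spread of the Dlx5 heterozygous mean and the Kat6a heterozygous mean of 47.5 ± 4.8 CPM below both. The call was lost without double heterozygous replicate 1 (0.38, adjusted p = 1), without Kat6a heterozygous replicate 1 (0.47, adjusted p = 0.0881) and in the 8 libraries alone (0.52, adjusted p = 0.153). It was kept with GC-corrected offsets (0.53, edgeR adjusted p = 0.0141).

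The 250 bases before the RefSeq starts of these genes are shown because both rose in double heterozygous arches, with TAATTA in capitals. Neither window holds the AP-1 motif in the form TGANTCA, which 6.75% of all windows hold. Other forms of the AP-1 motif were not searched, so either window may hold one. The Jun window holds the letters TGACATCA, which the search did not cover.
Alkal2, chr12:30884074-30884323, plus strand: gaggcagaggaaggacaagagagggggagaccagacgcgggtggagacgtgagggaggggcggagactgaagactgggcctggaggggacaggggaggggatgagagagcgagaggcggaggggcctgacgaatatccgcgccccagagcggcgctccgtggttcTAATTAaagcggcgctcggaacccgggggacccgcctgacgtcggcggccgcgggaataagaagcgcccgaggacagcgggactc
Jun, chr4:95052223-95052472, minus strand: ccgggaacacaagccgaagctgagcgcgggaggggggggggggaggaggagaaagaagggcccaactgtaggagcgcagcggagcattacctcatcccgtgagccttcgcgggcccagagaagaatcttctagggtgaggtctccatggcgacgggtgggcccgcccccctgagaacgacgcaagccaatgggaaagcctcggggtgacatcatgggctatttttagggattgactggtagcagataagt
The Alkal2 window holds 1 copy of TAATTA, beginning 85 bases before the start, and the Jun window holds none. The windows differ in base composition, with 68% GC before Alkal2, 61.2% before Jun and 33.2% and 34% before the starts of Dlx6os1.

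Mex3d (chromosome 10, 80380355 to 80387651), which encodes an RNA-binding protein with KH and RING domains, had 86.8, 83.4, 86.1 and 85.3 CPM in double heterozygous libraries, against 62.9, 59.3, 68.7 and 66.9 CPM in Kat6a heterozygous libraries. The groups did not overlap and the double heterozygous libraries were nearly level. Its log2 fold change was 0.39 (SE 0.07, 95% interval 0.24 to 0.54, edgeR adjusted p = 0.0412), with 0.34 within batch 1 and 0.45 within batch 2. With 62.1% GC, Mex3d belongs to the class of genes whose median lay low in Kat6a heterozygous replicates 1 and 2, and with GC-corrected offsets its value was 0.30 (adjusted p = 0.115), which did not pass. Leaving out any of the 4 double heterozygous libraries lost the call, with edgeR adjusted p of 1, 0.0702, 0.0505 and 0.11 and values of 0.35 to 0.40. So did leaving out Kat6a heterozygous replicate 1, 2 or 4, wild type replicate 1, 2 or 3, Dlx5 heterozygous replicate 2, Dlx5 homozygous replicate 2 or Kat6a homozygous replicate 1, 2 or 3, with values of 0.36 to 0.41 and adjusted p of 0.05004 to 0.303. Mean levels were 80.0 ± 3.6 CPM in Dlx5 heterozygous and 75.6 ± 1.6 CPM in wild type libraries (SD, n = 4 each). They were 75.4 ± 8.5 CPM in Dlx5 homozygous and 82.4 ± 4.0 CPM in Kat6a homozygous libraries. The Kat6a heterozygous mean of 64.4 ± 4.2 CPM was thus the lowest group mean of the series. The difference between the Dlx5 effects on the 2 Kat6a backgrounds was 0.32 (SE 0.09, unadjusted p = 0.00208, adjusted p = 0.877).

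Immediate early genes are a class that responds within minutes to growth factors. Of 12 tested, 1 was called higher, 9 were above 0 and the median was 0.27 (0.19 without double heterozygous replicate 1). Over all genes tested, 0.0207% were called higher and 49.3% were above 0. The member called is Jun, already described above, so the list gives no further call. Jund, another AP-1 subunit, had 133, 98.6, 96.1 and 112 CPM in double heterozygous libraries and 43.5, 43.3, 75.2 and 78.3 CPM in Kat6a heterozygous libraries (0.81, SE 0.25, adjusted p = 0.525). Its groups did not overlap, and Kat6a heterozygous replicates 1 and 2 were the lowest. Jund has 67.1% GC and stood at 0.61 with GC-corrected offsets. Ier2 stood at 0.21 (SE 0.09), the dual-specificity phosphatase gene Dusp1 at 0.35 (SE 0.13), Fos at 0.50 (SE 0.35) and Nr4a1 at −0.00 (SE 0.14).

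Among the genes nearest to the threshold were 3 forkhead genes, Foxl1, Foxf2 and Foxd1. Named by their p alone, 7 further genes were above 0 and did not pass edgeR, with adjusted p from 0.0655 to 0.145. Foxl1, a forkhead factor of gut mesenchyme, had 7.67, 5.39, 3.39 and 5.63 CPM in double heterozygous libraries and 2.10, 3.56, 3.21 and 1.42 CPM in Kat6a heterozygous libraries (1.41, SE 0.28, adjusted p = 0.0655). Foxf2, a forkhead factor that hedgehog signalling induces and that the palate needs, had 39.7, 29.2, 23.0 and 30.6 CPM against 19.1, 23.7, 20.2 and 17.1 CPM in the same order (0.75, SE 0.15, adjusted p = 0.0826). In both genes double heterozygous replicate 3 lay below Kat6a heterozygous replicate 2, the rest did not overlap, and double heterozygous replicate 1 was the highest. Cldn11, a tight junction claudin, stood at 1.11 (SE 0.22) and reached 10.04 CPM in double heterozygous replicate 1, against 3.81 to 4.72 CPM in the other 3 libraries of that group and 2.22 to 3.94 CPM in Kat6a heterozygous libraries. Basp1, a membrane-bound protein of growth cones, did not overlap, with 185, 139, 149 and 161 CPM in double heterozygous libraries and 107, 107, 113 and 122 CPM in Kat6a heterozygous libraries (0.50, SE 0.10, adjusted p = 0.0826). Foxd1, a forkhead factor, stood at 0.59 (SE 0.13), Sfrp1, a secreted Wnt antagonist, at 0.36 (SE 0.08) and Shisa2, which holds Wnt and FGF receptors back in the cell, at 0.35 (SE 0.07). DESeq2 called all 7 of these genes, and limma voom called all of them except Basp1.

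On the lower side, 9 further genes named by their p did not pass, with adjusted p from 0.0826 to 0.421. Ptprz1, a receptor phosphatase of neural progenitors and glia, had 7.30, 9.12, 9.82 and 10.51 CPM in double heterozygous libraries and 16.7, 15.7, 10.9 and 14.9 CPM in Kat6a heterozygous libraries (−0.78, SE 0.16, adjusted p = 0.0826). Its groups did not overlap, and it was called by DESeq2 and by limma voom. Tmem245, a gene of a membrane protein, had 42.3, 46.0, 43.2 and 45.7 CPM against 61.9, 67.8, 59.5 and 57.5 CPM in the same order (−0.49, SE 0.14, adjusted p = 0.421), again with no overlap. The other 7 were Tunar, a long noncoding RNA (−0.95), Hopx, a homeodomain-only protein gene (−0.95), Klhl14 (−1.14), Nup210, a nuclear pore gene (−0.39), Cyp1b1, a cytochrome P450 gene (−0.42), Smim11 (−0.32) and Fhl1, a LIM domain gene (−0.29). Klhl14 was rare, with 17, 10, 8 and 10 raw counts in double heterozygous libraries and 24, 17, 24 and 31 in Kat6a heterozygous libraries.

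**Figure D4:**
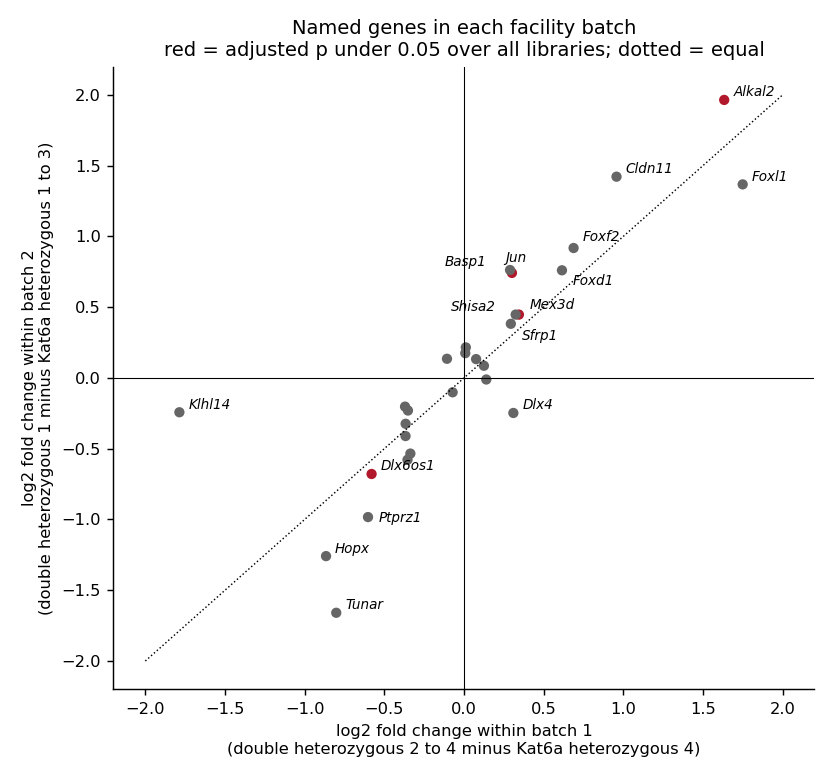
Log2 fold change of each of the 29 named genes within batch 1 (x axis, double heterozygous replicates 2 to 4 minus Kat6a heterozygous replicate 4) and within batch 2 (y axis, double heterozygous replicate 1 minus Kat6a heterozygous replicates 1 to 3). In 26 of the 29 genes the direction was the same in both batches, but most of these genes were chosen on a fit of both batches together.

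Within batches, the contrasts shared no library, and each rested on a single library on one side. Across all genes tested, the values within batch 1 and within batch 2 had the same sign in 57.7% of genes and a Pearson correlation of 0.0924, given as a description. Among the named genes 26 of 29 had the same direction, but most were picked on both batches pooled, so this count is no independent support. Jun (0.30 and 0.74) and Basp1 (0.29 and 0.76) were among those larger within batch 2, and Foxl1 (1.75 and 1.37) was larger within batch 1.

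Palate and forkhead mesenchyme genes lay above 0 as a group. All 24 tested had a positive log2 fold change, against 49.3% of all genes tested, and their median was 0.42, against −0.00 over all genes. None passed the edgeR test, and 16 had an unadjusted p under 0.05, against 5.91% of all genes tested. DESeq2 and limma voom each called 3, all higher. The median was 0.36 within batch 1, 0.62 within batch 2, 0.28 without double heterozygous replicate 1 and 0.47 without Kat6a heterozygous replicate 3, the library low in Xist. Double heterozygous replicate 1 was the highest of the 8 libraries in 18 of the 24 genes. For Dlx5 heterozygous minus wild type libraries, 19 of the 24 genes were above 0, with a median of 0.20. Whether the list differed between the Kat6a backgrounds was not tested. The list was chosen with earlier results of these data known, and its members are not replicates of each other.

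Among its members, Foxd2 had 31.2, 27.1, 24.9 and 29.1 CPM in double heterozygous libraries and 17.5, 18.4, 19.7 and 18.5 CPM in Kat6a heterozygous libraries (0.58, SE 0.14, adjusted p = 0.278). Foxc2, which with Foxc1 shapes skull and arch mesenchyme, had 40.3, 24.0, 22.7 and 22.9 CPM against 17.8, 18.6, 20.6 and 18.1 CPM in the same order (0.66, SE 0.16, adjusted p = 0.3003). Tbx2, a T-box repressor, had 247, 209, 202 and 216 CPM against 141, 142, 162 and 170 CPM (0.48, SE 0.13, adjusted p = 0.393). These 3 did not overlap between groups, nor did Foxc1 (0.33, SE 0.09) and Foxl2 (0.47, SE 0.17), which makes 5 of the 24 genes, against 2.03% of all genes tested. At the other end of the list stood Prrx2 (0.04, SE 0.11), Lhx8 (0.08, SE 0.10), Tbx22 (0.10, SE 0.30) and Prrx1 (0.10, SE 0.13), broad or palatal regulators whose groups overlapped. Tbx2, Foxd2, Foxc2 and Foxl2 have 63.2%, 62.7%, 62% and 60.8% GC, a class of genes whose median lay low in some Kat6a heterozygous libraries. With GC-corrected offsets they stood at 0.37, 0.48, 0.57 and 0.41. Foxc1, with 55.9% GC, stood at 0.32. Overlap was judged on CPM without GC correction, and the 2.03% covers genes of all GC contents. Whether the 5 exceed the share among genes of like GC content was not tested. With the same offsets the list median was 0.39, with 23 of 24 genes above 0.

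**Figure D5:**
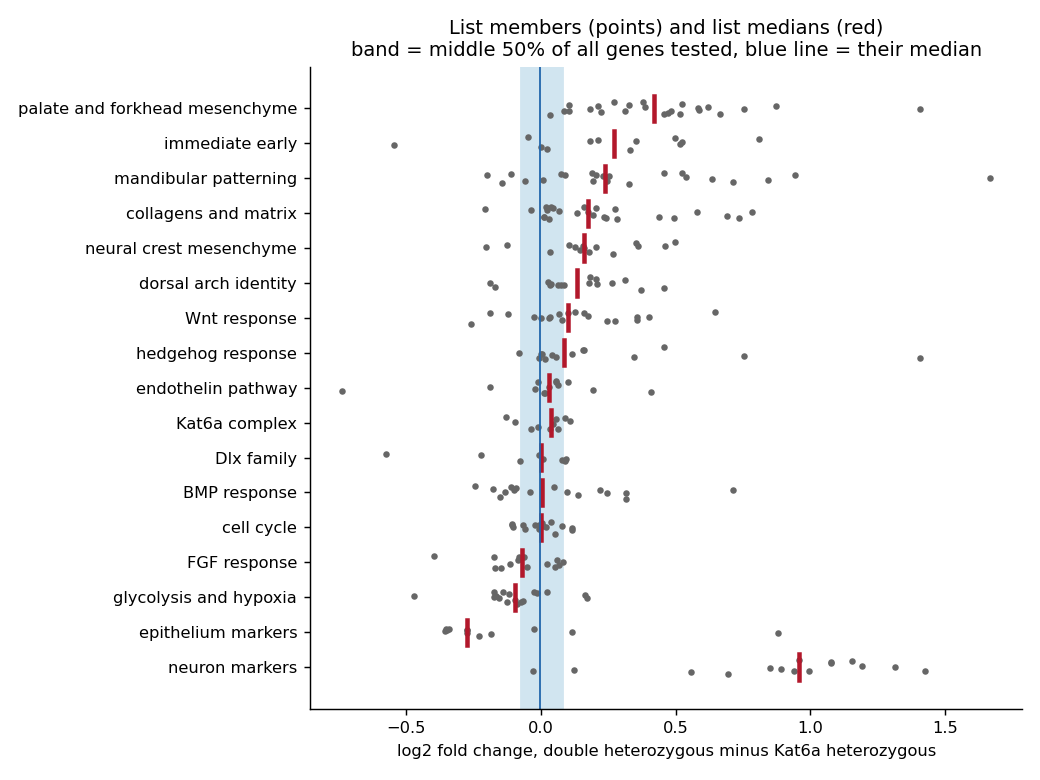
Log2 fold change of the double heterozygous minus the Kat6a heterozygous libraries for each tested member of 17 lists (points), with the list median in red, the middle 50% of all genes tested as a band and their median as a blue line. Palate and forkhead mesenchyme genes all lie right of 0, with a median of 0.42, epithelium markers lie mostly left of it, with a median of −0.27, and neuron markers spread up to 1.43.

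Other mesenchymal lists lay above 0 by less. For the counts that follow, 49.3% of all genes tested were above 0 and 5.91% had an unadjusted p under 0.05. Of 15 neural crest mesenchyme genes, 13 were above 0 (median 0.16) and 0 passed in edgeR, DESeq2 or limma voom, with 5 above 0 at an unadjusted p under 0.05. Twist2 had 66.4, 54.1, 48.7 and 59.1 CPM in double heterozygous libraries and 34.4, 34.3, 45.0 and 45.5 CPM in Kat6a heterozygous libraries (0.50, SE 0.13, adjusted p = 0.360), with no overlap, while Twist1 stood at 0.35 (SE 0.10), Pdgfra at 0.12 (SE 0.10) and Tfap2b at −0.13 (SE 0.28). Msx1, a homeobox gene of arch mesenchyme, had 61.6, 47.3, 43.5 and 51.0 CPM in double heterozygous libraries and 17.3, 16.9, 39.8 and 42.8 CPM in Kat6a heterozygous libraries (0.71, SE 0.32, adjusted p = 0.802), so that Kat6a heterozygous replicates 1 and 2 were low and replicates 3 and 4 came close to the double heterozygous values. Of 25 collagen and matrix genes, 23 were above 0 (median 0.17), none passed in edgeR, and DESeq2 and limma voom called 1 each, and 9 had an unadjusted p under 0.05, 8 of them above 0. Col1a2, a chain of fibrillar collagen I, had 337, 285, 239 and 274 CPM against 252, 279, 249 and 189 CPM in the same order (0.44, SE 0.10, adjusted p = 0.217), Col3a1 stood at 0.24 (SE 0.07), Postn at 0.28 (SE 0.08) and Col18a1 at −0.21 (SE 0.10). Skeletal differentiation genes had a median of 0.13 over 11 genes, with 0 called in edgeR, DESeq2 or limma voom and 0 at an unadjusted p under 0.05, and with Sox9, the cartilage regulator, at 0.14 (SE 0.10) and Runx2, the bone regulator, at 0.17 (SE 0.19). Without double heterozygous replicate 1 the medians were 0.11 for neural crest mesenchyme, 0.12 for collagens and matrix and 0.07 for skeletal differentiation.

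Signalling lists mostly stayed near the median of all genes. Median log2 fold changes were 0.10 for 19 Wnt genes, 0.09 for 14 hedgehog genes, 0.16 for 14 retinoic acid genes, 0.00 for 16 BMP genes and −0.07 for 14 FGF genes, and edgeR called none of their members. At an unadjusted p under 0.05 there were 4, 4, 4, 2 and 0 of these genes in the order given, against 5.91% of all genes tested. DESeq2 and limma voom each called 1 Wnt gene and 2 hedgehog genes. Among targets that read out the pathways directly, Axin2 of the Wnt pathway stood at 0.10 (SE 0.09) and Dusp6 of the FGF pathway at 0.07 (SE 0.08). Ptch1 and Gli1 of the hedgehog pathway stood at 0.00 (SE 0.11) and 0.16 (SE 0.13). Not every such target lay near 0, since hedgehog signalling also induces Foxf2. Within the hedgehog list, the members high in double heterozygous libraries were the forkhead genes Foxf1, Foxf2 and Foxl1 and the co-receptor gene Gas1, which had 265, 226, 230 and 237 CPM against 158, 174, 204 and 209 CPM in the same order (0.35, SE 0.09, adjusted p = 0.393). The retinoic acid enzymes went apart. Aldh1a2 had 8.40, 4.08, 2.54 and 3.56 CPM in double heterozygous libraries and 1.31, 3.40, 3.30 and 2.13 CPM in Kat6a heterozygous libraries (1.31, SE 0.38, adjusted p = 0.421), and Aldh1a3, which marks frontonasal and eye epithelium, had 4.38, 6.43, 18.2 and 7.62 CPM against 14.96, 6.57, 18.5 and 24.1 CPM (−1.24, SE 0.44, adjusted p = 0.650). Both overlapped between groups. Cell cycle genes had a median of −0.00 over 16 genes, anterior Hox and TALE genes 0.01 over 10 and checkpoint genes 0.02 over 13. Glycolysis and hypoxia genes had a median of −0.10 over 17, of which 3 were above 0, against 49.3% of all genes tested. Brain and eye patterning genes had a median of −0.32 over 12, with Otx2 at −1.09 (SE 0.42), and that median was −0.07 with the neuron score as a covariate. In these 5 lists edgeR, DESeq2 and limma voom called 0 genes, and 0, 0, 3, 1 and 1 had an unadjusted p under 0.05, again against 5.91% of all genes.

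Neuron markers differed widely between libraries of the same group. Over the 15 neuron markers the median was 0.96 and 0 passed in edgeR, with 0 at an unadjusted p under 0.05 and 0 in DESeq2 or limma voom. Within batch 1 the median was 2.61 and within batch 2 it was −0.14, in which Kat6a heterozygous replicate 2 takes part. Tubb3, neuronal tubulin, had 43.99, 29.7, 73.1 and 77.1 CPM in double heterozygous libraries and 7.61, 128, 9.20 and 11.01 CPM in Kat6a heterozygous libraries, so that 3 Kat6a heterozygous libraries lay below every double heterozygous one and the other lay above. Without replicate 2 of the Kat6a heterozygous, Dlx5 heterozygous, Kat6a homozygous and wild type groups, 89 genes passed, 84 of them higher, and these held all 4 genes named above. Neuron genes such as Snap25 (3.83), Pou4f1 (3.92), Elavl4 (1.86) and Nefl (3.37) were then among the genes called, and Foxf2 (0.81, adjusted p = 0.00652) and Sfrp1 (0.40, adjusted p = 0.00657) as well. With double heterozygous replicate 1 left out too, 19 genes passed and none of the 4 was among them. That choice was one-sided, since it took out 1 Kat6a heterozygous and no double heterozygous library, although double heterozygous replicates 3 and 4 (4.00 and 3.95 mean log2 CPM over the markers) stood level with the Kat6a homozygous library left out (3.98). With those 2 double heterozygous libraries left out as well, so that none of the 6 libraries over 3.9 remained, 39 genes passed, 37 of them higher. Dlx6os1 (−0.62, adjusted p = 0.0172), Alkal2 (2.06, adjusted p = 0.00804) and Jun (0.57, adjusted p = 0.00813) were among them, and Mex3d was not (0.36, adjusted p = 0.147). The palate and forkhead list then had 4 genes called higher and a median of 0.46. The neuron marker median was 2.56, with 7 neuron markers called. In each of these fits libraries were left out for their levels of these same markers. The neuron marker values and calls there are therefore no independent result. The neuron score is the mean log2 CPM of these 15 markers. With it as a covariate over all 24 libraries, 4 genes passed, 3 of them shared. The medians were 0.37 for palate and forkhead genes, −0.07 for brain and eye patterning genes and −0.08 for epithelium markers. The neuron marker median was 0.03, which follows from how the score is built and is no result.

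Of 12 epithelium markers, 2 were above 0 and the median was −0.27, or −0.08 with the neuron score as a covariate. Their summed level was 484 to 682 CPM in double heterozygous libraries and 454 to 768 CPM in Kat6a heterozygous libraries, so that the ranges overlapped. All 12 myeloid markers were above 0, against 49.3% of all genes tested, with a median of 0.41. Their summed level was 50.2 to 69.4 CPM against 40.5 to 58.1 CPM in the same order. Endothelium markers summed to 451 to 494 CPM against 409 to 465 CPM, muscle markers to 84.0 to 95.4 CPM against 73.4 to 95.3 CPM, and erythroid markers to 2165 to 3391 CPM against 1967 to 3797 CPM. No gene of these 5 lists passed in edgeR. Of the 12 myeloid genes 5 had an unadjusted p under 0.05, of the 12 endothelium genes 3, of the 9 muscle genes 1, and of the epithelium and erythroid genes 0. Over all genes tested that share was 5.91%. Neither DESeq2 nor limma voom called any gene of these lists. Medians were 0.24 for 9 crest glia and early neural markers, 0.01 for 8 pharyngeal endoderm markers, −0.17 for 4 heart muscle markers and −0.02 for 5 lens and otic markers, with 1, 1, 0 and 1 at an unadjusted p under 0.05, 0 called in edgeR and Ptprz1 alone called in DESeq2 and limma voom. The heart markers Myl2, Myh6 and Tnnt2 were nearly absent, with 1, 41 and 25 counts in all 8 libraries together, as was the thyroid factor Nkx2-1 with 12, and no marker was at 0 in all 8. The mesenchymal arch markers Prrx1 (687 to 937 CPM over the 8 libraries) and Pdgfra (252 to 328 CPM) were high throughout. The muscle marker median of 0.16 was 0.01 without double heterozygous replicate 1. The part of the markers other than neuron markers in the results was not tested.

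A single gene passed the test of whether the Dlx5 allele acted differently on the 2 Kat6a backgrounds, 0.00689% of those tested, and 783 had an unadjusted p under 0.05. This gene, Gm6402, is annotated as a transcribed pseudogene on chromosome 17 (30394825 to 30396180) and was named after its values were seen. It had 17.1, 14.5, 20.4 and 14.7 CPM in double heterozygous libraries and 10.9, 7.68, 11.5 and 10.03 CPM in Kat6a heterozygous libraries (0.80, SE 0.16, adjusted p = 0.0655). On the intact Kat6a background the order was the reverse, with 11.9, 11.7, 9.75 and 8.78 CPM in Dlx5 heterozygous libraries and 13.5, 12.8, 13.8 and 17.9 CPM in wild type libraries (−0.44, SE 0.15, adjusted p = 0.266). The difference of effects was 1.24 (SE 0.20, edgeR adjusted p = 0.0320), and the groups did not overlap on either background. As a pseudogene it may share reads with its parent gene, so its counts are uncertain. The call was lost without the 4 replicates 2 named above, without all 6 libraries high in neuron markers, with the replicate block, and without any one of double heterozygous replicates 1 and 3, Kat6a heterozygous replicates 1, 2 and 4, Dlx5 heterozygous replicates 3 and 4, wild type replicates 1, 3 and 4 and Dlx5 homozygous replicates 3 and 4. Tmem245 came next among the named genes, with a difference of effects of −0.78 (SE 0.18, unadjusted p = 0.000267, adjusted p = 0.553): its log2 value was −0.49 for double heterozygous minus Kat6a heterozygous and 0.28 for Dlx5 heterozygous minus wild type libraries, where wild type values spread from 31.2 to 56.3 CPM.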

How the data were processed

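Gene expression in 24 mouse libraries was measured by RNA-seq with a stranded mRNA kit, per the labels' protocols. Raw, unnormalized counts for genes under Entrez identifiers were deposited, with gene lengths. Per the submitters' processing notes, CASAVA 1.8.2 and featureCounts were used with build mm10. No source used here states the aligner, annotation, featureCounts version or strand setting. Of 27179 entries, 568 held no identifier (0.182% to 0.259% of a library's counts) and were left out, and 25275 of 26611 identifiers matched a RefSeq symbol of GRCm38.p6.

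Groups, replicate numbers and batches are from the labels. edgeR 4.0.16 (R 4.3.3) was run on the deposited counts: filterByExpr by group, TMM scaling, and a robust quasi-likelihood fit of 6 group means and batch over all 24 libraries (17 residual degrees of freedom). Genes were called at an adjusted p under 0.05. Levels are TMM-scaled CPM without batch correction, and fold changes are batch-adjusted. Standard errors follow from the test statistic. p-values measure the spread between these biological replicates, and intervals are at 95%. A second contrast was the Dlx5 heterozygous minus wild type difference subtracted from the main one. List scores used log2 CPM with a prior count of 2. GC content is that of the longest GENCODE vM21 transcript linked to a gene, available for 14149 of 14506 genes.

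Named genes are Kat6a, Kat6b, the Dlx family, up to 15 called genes per direction with a mean of at least 1 CPM, called list members, and the smallest unadjusted p up to 10 per direction, without predicted genes, pseudogenes and sex-linked markers. Other genes are given as list members, chosen after their values were seen, as was Gm6402. Members, lists (31, of which 10 hold cell type markers) and tests were chosen with earlier results of these data known. Alternatives were RLE scaling, no filter, a stricter filter (1 CPM in 12 libraries), no batch term, only the 8 libraries, each batch alone, a replicate block, a neuron score as covariate, length-corrected offsets, each library left out, limma 3.58.1 (voom, quality weights) and DESeq2 1.42.0. Leaving out replicate 2 of 4 groups (without and with double heterozygous replicate 1), leaving out all 6 libraries with a neuron score over 3.9, GC-corrected offsets and the difference in batch 2 alone were chosen after seeing the data. The procedure was tested on simulated counts of independent libraries. These held no shared differences in neuron or GC content between libraries, so that test does not bear on how the calls depend on single libraries. No 2 libraries of these groups matched within sampling noise.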

Additional observations from a re-analysis of the deposited data

Results flagged for a closer look

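Within the groups of 4, the highest or lowest library was set against the range of its group (Dixon's test at 95%), for the named genes, Gm6402, the lists and Xist in 124 groups. Among groups of like libraries chance alone sets apart about 1 in 20, and 10 stood apart. These levels carried no batch correction, and the libraries of a group were not all from 1 batch. Double heterozygous replicate 1 and Kat6a heterozygous replicate 4 were each alone in their batch within their group. Where they stood apart (Dlx1as, Cldn11 and the erythroid mean), batch and other differences cannot be told apart. Xist in Kat6a heterozygous replicate 3 had a gap over range of 0.926, as single gene and as its own list, at 7.55 CPM against 1411 to 2140 CPM. The neuron marker mean of Kat6a heterozygous replicate 2 had 0.868 (4.77 against 0.87 to 1.39 mean log2 CPM), and the erythroid mean of Kat6a heterozygous replicate 4 had 0.835 as the lowest. Cldn11 was lowest in the same library, with 0.863. The dorsal arch mean was lowest in Kat6a heterozygous replicate 1 (0.921).

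In the double heterozygous group, Dlx1as was highest in replicate 1 (0.908), the skeletal differentiation mean lowest in replicate 4 (0.923), the BMP mean lowest in replicate 3 (0.845) and the checkpoint mean highest in replicate 3 (0.860).

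Gm6402 passed the test of a difference between the Dlx5 effects on the 2 Kat6a backgrounds, with a difference of 1.24 on the log2 scale.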

How the results depend on the processing

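Against 4 genes called, DESeq2 gave 15, limma voom 13, no filter 7, the stricter filter 1, batch 1 alone 0 (808 at an unadjusted p under 0.05), batch 2 alone 10, length-corrected offsets 11, replicate 2 of 4 groups left out 89 (a one-sided choice, with no double heterozygous library among them), double heterozygous replicate 1 left out with them 19, and all 6 libraries high in neuron markers left out 39. RLE scaling (4), no batch term (3), only the 8 libraries (5, of which 1 was shared), the neuron covariate (4, of which 3 were shared) and GC-corrected offsets (3) stayed within 1.5 times. With each of the 24 libraries left out the count ran from 0 to 7. For the difference of effects, against 1 gene, length-corrected offsets gave 2, batch 2 alone 6, each of these 3 sets of libraries left out 0, and libraries left out in turn 0 to 1. The same-numbered libraries deviated with correlations of −0.064, −0.251, 0.108 and −0.267, so the numbers were not taken as pairs. The replicate block gave 8 genes called (all 4 shared) and 0 for the difference. The direction of the 4 called genes held in all alternatives that could be run, while Mex3d stayed called in 18 of 40, Dlx6os1 in 25 of 40, Alkal2 in 31 of 39 and Jun in 35 of 40.

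Signs turned only in genes near 0. Dlx4 turned to 0.0554 (limma voom), 0.0269 (no batch term), 0.028 (only the 8 libraries), 0.31 (batch 1), 0.0432 and 0.1278 (replicates 2 out, without and with double heterozygous replicate 1), 0.0323 (all 6 high in neuron markers out), and ran from −0.2042 to 0.1118 with single libraries out. Dlx6 turned to −0.0064 (limma voom), −0.042 (no batch term), −0.1068 (batch 1), −0.0758 (neuron covariate), −0.0037 and −0.1182 (replicates 2 out, likewise), and ran from −0.0787 to 0.0694. Kat6a turned to −0.0117 (batch 2), −0.0284 (replicate block) and −0.0169 (neuron covariate), and ran from −0.0514 to 0.0727. Dlx5 turned to −0.0088 (no batch term). Dlx1 and Dlx2 turned to −0.0056 and −0.0351 (replicates 2 and double heterozygous replicate 1 out), and Dlx2 ran from −0.0013 to 0.1399. The cause of these shifts was not tested.

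With 3 libraries of a group in one batch and 1 in the other, differences of facility and genotype can be told apart only through the fitted batch term, to which 3 groups contribute. At 10.932 to 12.781 M counts, genes near 1 CPM rest on about 10 counts a library.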
